A study of Gallus gallus with 60 samples.

Results

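Gene expression in the cerebrum was measured in 30 brown laying hens of the line Lohmann Brown (LB), and the results concern the level of each gene in these birds and its spread between them. All 30 hens whose label names the line LB were taken, out of 60 hens in the series; the remaining 30 belong to the white line Lohmann Selected Leghorn (LSL) and serve as a second set of birds, in which spreads, correlations and the sides of separate levels were read; no gene was tested for a difference in level between the lines. Groups of 36 contributed 14 of the LB hens and groups of 54 the other 16, all kept in the same small group housing system and aged 65 to 68 weeks. The labels place every sample in the right posterior cerebrum, whereas the methods of the study name a left and a right site. RNA of each hen was hybridised to 1 array (Affymetrix chicken gene array), so a group consists of separate birds. According to the methods several hens were taken per compartment, and hens were picked as stressed or unstressed; the labels record neither, so hens may not be independent and the p-values given here may be too low.

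The values are log2 expression values, so a difference of 1 is a 2-fold difference. Each row of the table combines the probe sets listed in its identifier, a median of 7 per row. The 16317 rows with a mean over all hens of at least 5.08, the 20th percentile, were kept, and 7453 of them carry exactly 1 gene symbol and are called named rows here. Named rows stand for 7200 genes. The median of every array lay at 6.86, since the arrays had been brought to a common distribution. Precision is limited by the 30 arrays.

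The posterior cerebrum of birds holds pallial territories, in which excitatory neurons predominate, beside subpallial territories such as the striatum, which is rich in GABAergic neurons and neuropeptides. Glial cells, blood vessels and blood contribute RNA to any dissected piece of it. According to the methods the samples were taken without meninges. In a bulk sample, fewer cells of a type and less RNA per cell cannot be told apart, nor can either be told from a difference in the place of dissection. Female birds carry a Z and a W chromosome.

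The 30 arrays did not form an even cloud. The first principal component took up 24.4% of the variance and set 8 hens apart, with scores from 0.23 to 0.33, against scores from -0.19 to -0.05 in the other 22. Both group sizes contributed 4 of the 8 hens. No label names such a set. All 8 have hen numbers up to 20, and of the 10 LB hens with such numbers only 2 lay with the others. When hens with consecutive numbers, odd then even, were joined to 15 pairs, both hens of every pair fell on the same side. These hens were found from the values and are not a group of the study, so they are not tested against the others. Counts and the main values are instead given for the 30 hens and again for the 22 hens without them.

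The highest array signals in the LB cerebrum belonged to genes of the mitochondrial genome. Different genes were read with different probes, so the order of genes is that of the signal and not of molecules per cell. Of the 20 genes with the highest mean, 12 are encoded there, and 8 are nuclear. COX1, a core subunit of cytochrome c oxidase, ranged from 12.90 to 13.03 with a median of 12.96, and its SD over the 30 hens was 0.03. ND1, a subunit of complex I, ranged from 12.85 to 13.06 with a median of 12.90. COX3 (mean 12.84), CYTB of complex III (12.83), ND5 (12.82), ND4 (12.78) and COX2 (12.75) followed. Further subunits of complex I, ND4L, ND3 and ND2, stood at 12.65, 12.51 and 12.47, and ATP6 and ATP8 of the ATP synthase at 12.51 and 12.10. The mitochondrial rows of the top 20 hold 1 probe set each. At the very top of the scale, 2 rows without a gene name had the same value in every hen, 13.20 and 13.51. The highest genes also took the same few values in many hens, such as 12.9555 and 12.9392 in COX1. The arrays had been brought to a common distribution, so small SDs at this end of the scale say little about RNA amounts.

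Among nuclear genes the highest was VSNL1, a neuronal calcium sensor, which ranged from 12.49 to 12.78 with a median of 12.67. GAPDH, an enzyme of glycolysis, ranged from 12.28 to 12.79 with a median of 12.65, and had the largest SD among the 20 genes. This SD was 0.16, which is 1.34 times the usual SD at this level and 0.722 times in the 22 hens. Next came YWHAB (12.44), a 14-3-3 adaptor protein, RAB6A (12.21), a GTPase of Golgi traffic, SNAP25 (12.19), a SNARE protein of synaptic vesicle release, RPL37A (12.17) of the large ribosomal subunit, ENO1 (12.14), again of glycolysis, and MBP (12.12), a structural protein of myelin. With the median over hens in place of the mean, 19 of the 20 genes were shared, CPE taking the place of ATP8.

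The labelled tissue was checked with gene lists for cell types and brain parts, again on the scale of array signal. The median of the 7200 genes was 7.69. The median of the 8 measured synaptic vesicle and SNARE genes was 11.15, led by SNAP25, SYNPR (11.62) and SYN2 (11.56). Pallial excitatory neuron genes had a median of 9.22, with MEF2C at 11.37, NEUROD6 at 10.62 and the vesicular glutamate transporter SLC17A6 at 10.55. GABAergic neuron genes had a median of 8.69, led by the calcium buffer PVALB (11.23), the vesicular GABA transporter SLC32A1 (10.01) and SST (9.88). Striatal genes had a median of 8.47, led by the cannabinoid receptor CNR1 (10.25), MEIS2 (9.54) and PDE10A (9.49). The 6 measured genes of cerebellum, tectum and thalamus had a median of 6.16, and the highest of them was TCF7L2 at 7.53. Those of hypothalamus and pituitary had a median of 6.32, and none of the 12 exceeded 7.10.

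Glia were represented by the water channel AQP4 (11.33), glutamine synthetase GLUL (11.09) and the gap junction protein GJA1 (10.77) among astrocyte genes, and by MBP and ASPA (8.73) among myelin genes. CD74, the invariant chain of MHC class II, reached 10.91, against 8.58 for CSF1R, the receptor that maintains microglia. Vessel genes included the glucose transporter SLC2A1 (9.53), the tight junction protein CLDN5 (9.32) and PECAM1 (8.67). The haemoglobin genes HBAA and HBM stood at 8.90 and 7.75. As whole lists these cell types lay below the median of all genes, 7.69. The medians were 7.25 for astrocyte, 7.15 for myelin and 7.27 for microglia and macrophage genes. For endothelial and pericyte genes the median was 6.87, and for red blood cell genes 6.33. The 6 measured genes of meninges and fibroblasts had a median of 7.47, though the methods name samples without meninges. The water channel AQP1 (10.69) and IGFBP2 (9.21) led the choroid plexus list, whose median was 6.08. Cytosolic ribosome genes had a median of 9.66 over 42 genes and respiratory chain genes a median of 9.38 over 31.

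Most genes differed little between hens. Over all rows the median SD was 0.18, and the median ratio of the highest to the lowest hen was 1.67-fold. Of the 7453 named rows, 6244 (83.8%) had an SD below 0.25, 56 had an SD above 0.5 and 2 an SD above 1. The SD fell with the level, from a running median of 0.22 at the lower end of the scale to 0.12 at the upper end. Each SD was therefore divided by the running median SD of the 500 rows nearest in level. This quotient is called the spread ratio. At either end of the scale the 500 outermost rows were used. The median spread ratio over named rows was 0.971. A spread ratio of at least 2 was reached by 293 named rows, 3.93% of them, which belong to 287 genes. The last row inside this limit was RPL35 (2.001) and the first outside was NECAP2 (1.999). In the 22 hens the same limit was reached by 305 named rows, of which 176 were also among the 293. In hens from groups of 36 alone, 257 of the 293 stood at 2 or more, and 240 in hens from groups of 54. Of the 293, 180 (61.4%) also reached 2 among the LSL hens, where 4.17% of all named rows did.

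**Figure D1:**
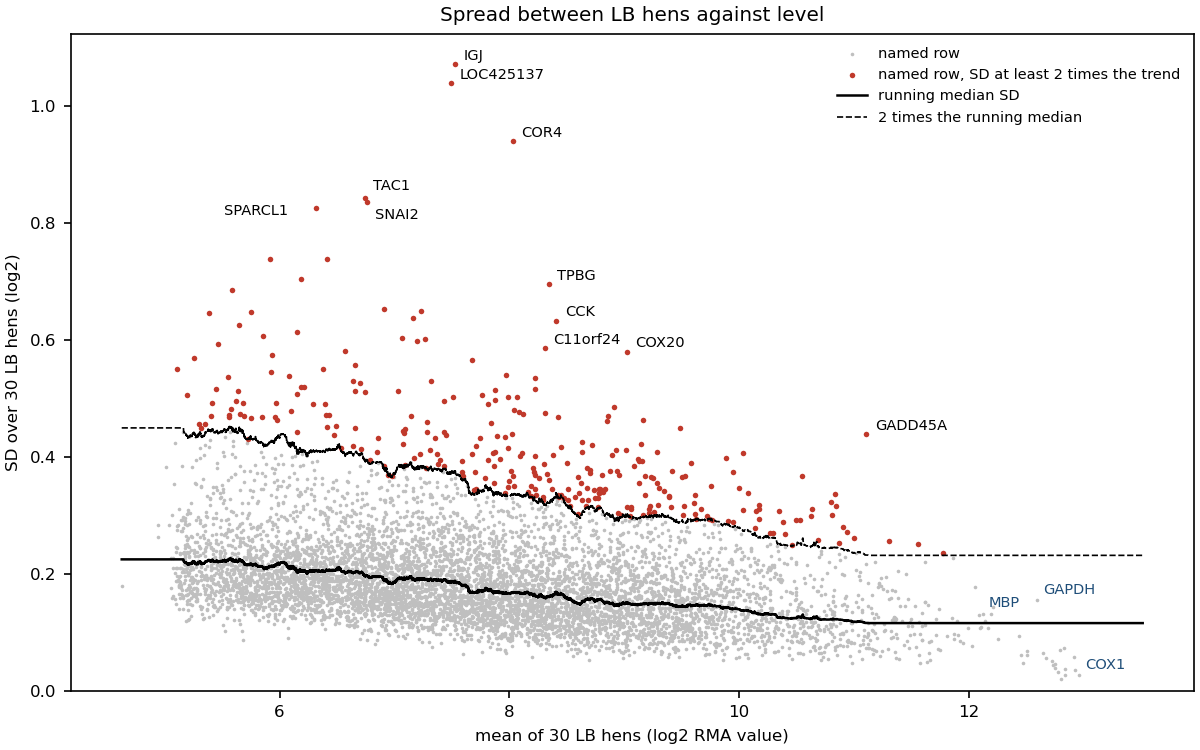
Each point is a named row, with the mean over the 30 LB hens on the x axis and the SD over the same hens on the y axis, both in log2. The solid line is the running median SD and the dashed line is 2 times that value. The 293 red points lie on or above the dashed line, with IGJ, LOC425137 and COR4 highest. COX1 and its neighbours at the right end, where many hens share the same values, have the smallest SD.

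Among named rows the widest spread for its level belonged to IGJ (JCHAIN in current nomenclature). It encodes the joining chain of secreted IgM and IgA made by plasma cells. It ranged from 5.87 to 9.63 with a median of 7.63, a 13.5-fold range, and its SD was 1.07, or 5.75 times the trend. The largest empty interval with at least 3 hens on both sides was 0.53, and the 8 hens lay within the range of the others, between 6.06 and 8.50. Without them the ratio was 7.57, and in the LSL hens it was 9.51. The other lymphocyte genes did not spread in this way. The 12 measured B and T cell genes had a median spread ratio of 1.04, and the next of them were CXCR4 (1.57) and CD8A (1.54). Across the 30 hens the Pearson correlation of IGJ was -0.50 with POU2AF1 and -0.43 with CD79B, genes of B cells, and in the LSL hens 0.24 and 0.17. These pairs were chosen after the values were seen and carry no test. The means of the 12 genes ranged from 5.23 to 7.53 with a median of 5.99. Much of the list thus lay not far above 5.08, the limit on the row mean for keeping a row. Its spread ratios and correlations therefore say little about lymphocyte content, and whether that content differed between hens was not tested.

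LOC425137, a locus without a named product, ranged from 3.67 to 8.26 with a median of 7.93, and its SD was 1.04. Here 21 hens lay at 7.60 or above, and the lowest of the 8 hens that stood apart was at 4.79. Its ratio was 5.60, and 1.96 with the median absolute deviation in place of the SD. COR4, an olfactory receptor gene represented by 1 probe set, ranged from 6.09 to 9.65. All 8 hens lay above 8.80 and the other 22 between 6.09 and 8.57, so the sets did not overlap. Its ratio was 5.61 in the 30 hens and 4.33 in the 22.

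Among neuropeptide precursors, TAC1 and CCK belonged to the 25 widest named rows, and PENK and NPY had a spread ratio of at least 2. TAC1, the precursor of substance P, ranged from 4.47 to 8.58 with a median of 6.84, a 17.2-fold range, at 4.30 times the trend and 3.89 in the 22 hens. Its highest value among the 8 hens was 6.79, below the median of all 30. The lowest hen of TAC1 lay below 5.08, the limit on the row mean for keeping a row, and the next stood at 5.57. Of the other widest rows, LOC425137, SNAI2, SPARCL1, RRBP1 and C6 also had their lowest hen below that limit. CCK, the precursor of cholecystokinin, ranged from 7.42 to 9.53 with a median of 8.48, and its ratio was 3.82, and 4.28 in the 22. PENK, the precursor of the enkephalins, ranged from 7.13 to 9.09 with a median of 7.78, at 3.06 and 4.03. NPY ranged from 9.03 to 10.04 and stood at 2.00. Not all peptides were as wide. SST ranked below the limit at a mean of 9.88 ± 0.16 (SD, n = 30).

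Other rows of the 25 widest were those of TPBG, RSPO3, FZD6, SNAI2 and TFAP2D. TPBG, a membrane glycoprotein that dampens Wnt signalling, ranged from 6.88 to 9.28 with a median of 8.51 and had a ratio of 4.33 (5.23 in the 22 hens). RSPO3, a secreted enhancer of Wnt signalling, ranged from 6.27 to 8.80 at 3.38 (3.26 in the 22), and the Wnt receptor FZD6 from 6.84 to 8.63 at 3.34 (3.93). SNAI2, a zinc-finger repressor of neural crest and mesenchymal development, ranged from 4.48 to 7.77 at 4.22 (4.49 in the 22), and TFAP2D, an AP-2 transcription factor, from 6.68 to 8.89 at 3.23 (3.51). None of these split by the 8 hens. The rows of TPBG and SNAI2 hold 1 probe set each.

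Further rows of the 25 widest encode enzymes, a transporter, a complement component and a repair factor. KYNU, kynureninase of tryptophan breakdown, ranged from 5.59 to 7.70 with a median of 6.15, at 3.59 times the trend and 4.16 in the 22 hens. C6, a terminal complement component placed on chromosome Z, ranged from 4.94 to 7.03 with a median of 6.01, at 3.47 (3.79 in the 22). PLA2G1B, a secreted phospholipase, ranged from 5.45 to 7.83 at 3.41 (3.42 in the 22), NUDT7, a peroxisomal hydrolase of coenzyme A, from 5.62 to 8.04 at 3.16 (2.95), and SLC19A3, a thiamine transporter, from 8.11 to 10.35 at 3.13 (3.06). XPA, a damage-sensing factor of nucleotide excision repair, ranged from 6.03 to 7.91 at 3.33 (3.71 in the 22, and 1.70 with the median absolute deviation). In the LSL hens the ratios of C6, FZD6 and XPA were 0.801, 0.853 and 0.947, whereas 21 of the 25 stood at 2 or more there.

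Some of the 25 widest rows moved with the 8 hens. COX20, an assembly factor of cytochrome c oxidase, lay between 7.78 and 8.37 in the 8 hens and between 8.89 and 9.63 in the others, and its ratio fell from 3.88 to 1.73 without them. GADD45A, a stress-induced growth arrest gene, lay between 11.69 and 11.97 in the 8 hens and between 10.69 and 11.20 in the others, with ratios of 3.78 and 1.37. The ratios of C11orf24 were 3.66 and 1.85 and those of C7H2orf66 3.13 and 1.80. These 4 were the rows of the 25 that fell below 2 in the 22 hens. LOC427545 (3.29 and 2.28), GADD45B (3.28 and 2.91) and C17orf70 (3.16 and 2.70), the last known as FAAP100 of the Fanconi anaemia complex, remained above it. The wide rows of RRBP1 (3.41, and 3.49 in the 22 hens), a ribosome-binding protein of the endoplasmic reticulum, and of SPARCL1, a matricellular protein secreted by astrocytes, hold 1 probe set each. The SPARCL1 row with 1 probe set stood at 4.02, and the one with 11 probe sets, at a higher level, at 2.21. Of the 293 rows, 53 (18.1%) hold 1 probe set, against 10.0% of named rows.

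**Figure D2:**
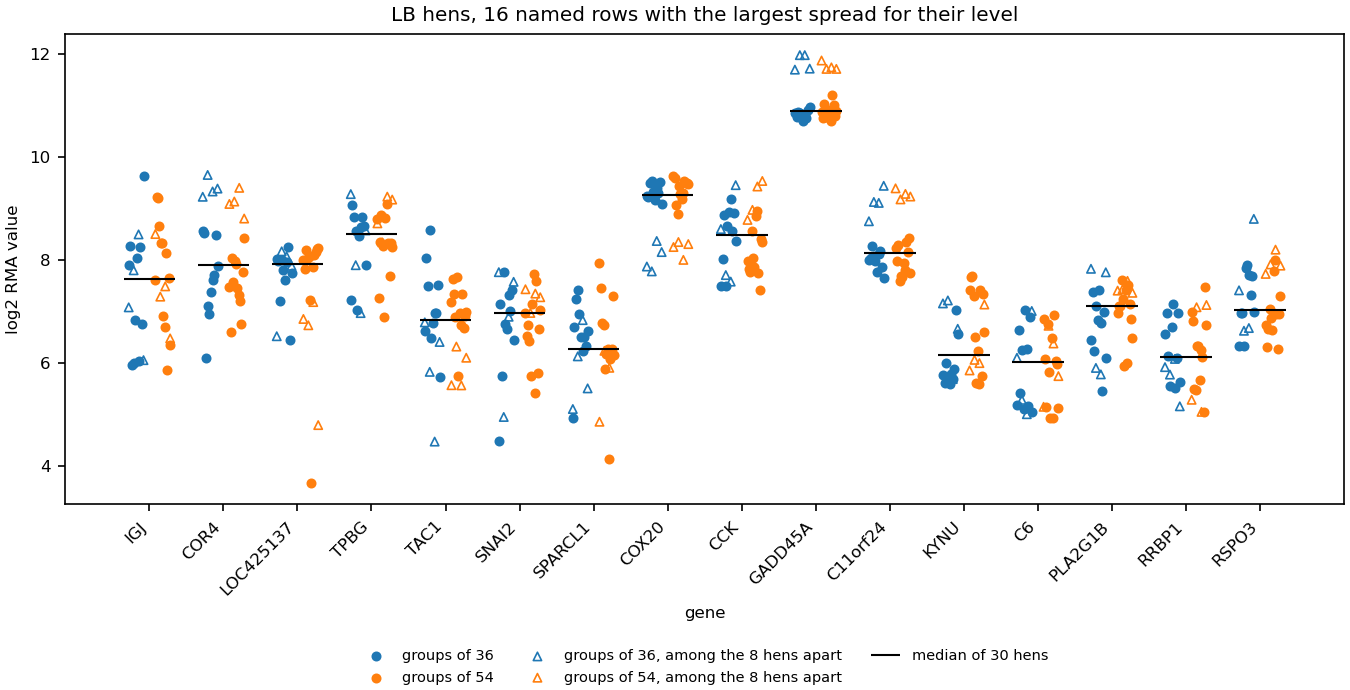
Values of the 30 LB hens (log2 RMA value, y axis) for the 16 named rows with the largest spread ratio (x axis); circles are the 22 hens, open triangles the 8 hens that stood apart, colours give the group size and the line the median. The colours overlap in every gene shown, while the triangles lie apart for COR4, COX20, GADD45A and C11orf24.

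The 27 gene lists held 303 measured genes, of which 32 (10.6%) reached a spread ratio of 2, against 3.83% of all 7200 genes. Lists were chosen with earlier results known and overlap in their members, so this is a description. GABAergic neuron genes had the largest median, 1.76 over 12 genes (all genes 0.967), and 3 of them reached 2: CCK, the homeobox gene DLX6 (2.23), which directs the development of GABAergic neurons, and NPY. GAD2, an enzyme of GABA synthesis, stood at 1.86 and the calcium buffer CALB1 at 1.80. Striatal genes had a median of 1.48 over 9 genes, with TAC1, PENK and the dopamine receptor DRD3 (3.00) above 2, while DRD1 stood at 1.48 and FOXP1 at 1.49. Core histone genes had a median of 1.50 over 9 genes, with HIST1H2BO (2.78) and H2B-V (2.49) above 2, both read from 1 probe set. Pallial excitatory neuron genes had a median of 1.30 over 7 genes, with NEUROD6, a transcription factor of these cells, at 2.42 and NRGN, a postsynaptic calmodulin-binding protein, at 2.11, which was 1.88 in the 22 hens.

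Both haemoglobin genes above the limit spread together. HBAA ranged from 8.02 to 9.84 with a median of 8.94 at 2.70, and HBM from 6.82 to 8.63 with a median of 7.67 at 2.52. Their correlation across hens was 0.90, 0.91 in the 22 hens and 0.89 in the 8, a pair chosen after the values were seen. The other 4 measured red blood cell genes stood at 1.32 or below. PDK4, a kinase that restrains pyruvate oxidation and responds to fasting and glucocorticoids, ranged from 7.08 to 8.97 at 2.84, and 3.98 in the 22 hens. SGK1, another glucocorticoid-responsive kinase, stood at 1.69, and 2.61 in the 22. The 2 had a correlation of 0.57 in the 30 hens and 0.67 in the 22.

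In the choroid plexus and ependyma list RSPH1 (2.32), a component of motile cilia, and AQP1 (2.08) reached 2, in the meningeal list FMOD (2.38), in the endothelial list PECAM1 (2.02), and in the myelin list UGT8 (2.21), a galactosyltransferase of myelin lipids. NDUFA8 of complex I (2.50) was the sole member of the respiratory chain list to do so, out of 31. Of 42 cytosolic ribosome genes 4 did, RPS24 (2.24), RPL32 (2.17), RPL27 (2.01) and RPL35 (2.00), and without the 8 hens only RPL32 (2.59). In the drug and aldehyde enzyme list NQO2 (2.41), GSTZ1 (2.19) and CYP2D6 (2.05) did. IFIT5 (2.09, 1 probe set) did in the interferon list and CRYAB (2.07) in the heat shock list, where CRYAB stood at 1.61 in the 22 hens. None of the immediate early genes did, the widest being ARC at 1.80 (9.15 to 10.17) and EGR1 at 1.65, though EGR4 stood at 2.02 in the 22 hens against 1.60 in the 30. None of the clock genes did, where NFIL3 was widest at 1.50. Microglia genes (10 measured) and proliferation genes (10 measured) also had no member at 2 in the 30 hens, and in the 22 hens CD74 of the former reached 2.09. FMOD and GSTZ1 belonged to a group of wide rows, described next, that was higher in the 8 hens.

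The 293 wide rows were then grouped by their correlation across the 30 hens, with average linkage and a limit of 0.7. This gave 13 groups of at least 3 rows with 158 rows in all, and 135 rows joined none. Since the rows were chosen and grouped on these values, the correlations are descriptions. The 2 largest groups followed the 8 hens. The first, led by COX20, held 58 rows that were lower in the 8 hens, among them GADD45B, OAT, RNF7, CNTNAP2, the proteasome subunits PSMA4, PSMA6 and PSMA7, the V-ATPase subunits ATP6V1D and ATP6V1G1, and RPS24. The second, led by GADD45A, held 46 rows that were higher, among them SOX4, GM2A, SERPING1, SCD, NRGN, IGFBP3 and RPL27. Within the first the mean pairwise correlation was 0.82 in 30 hens and 0.07 in the 22, and within the second 0.79 and 0.06. In the LSL hens these means were 0.84 and 0.75. Between the 2 groups the mean correlation was -0.79 in the 30 hens, -0.03 in the 22 and -0.78 in the LSL hens. The split by the 8 hens was also seen in the group of COR4, SIGLEC15 and FSHB. This group kept a mean correlation of 0.72 in the 22 and had 0.85 in the LSL hens. Together these 3 groups took up 107 of the 158 rows.

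In the other groups the 8 hens overlapped with the rest. The largest held 15 genes: TPBG, TFAP2D, DCBLD1, GABRA5, FIGN, TMEM196, NEUROD6, GFRA1, SATB1, MPPED2, PPP1R17, ADORA1, GRTP1, UTRN and KLF5. They include a GABA receptor subunit (GABRA5), the adenosine A1 receptor (ADORA1), a GDNF receptor (GFRA1) and the transcription factors TFAP2D, NEUROD6, SATB1 and KLF5. Their mean pairwise correlation was 0.77, with a lowest value of 0.55 over 105 pairs, and it was 0.76 in the 22 hens, 0.89 in the 8 and 0.62 in the LSL hens. In the 36 and 54 groups it was 0.82 and 0.72. GABRA5 ranged from 7.98 to 9.65 with a median of 9.11, and NEUROD6 from 9.71 to 11.01 with a median of 10.72.

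The next group held CCK, RSPO3, DRD3, HMGA2, CADPS2, RXFP3, EOMES, NPBWR1, COPN5L1 and BCL11A. These are a peptide (CCK), receptors for dopamine (DRD3), relaxin-3 (RXFP3) and neuropeptides B and W (NPBWR1), a factor of dense core vesicle release (CADPS2), and the transcription factors EOMES and BCL11A. The mean correlation was 0.82, 0.77 in the 22 hens and 0.79 in the LSL hens. DRD3 ranged from 5.09 to 7.42 with a median of 6.25 and EOMES from 6.22 to 8.10 with a median of 7.07. The TPBG and CCK groups rose and fell in part together, with a mean correlation of 0.53 between their members (0.43 in the 22 hens), and as a description the same sign was seen in the LSL hens, at 0.53.

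Some of the smaller groups ran against these, and others did not. KCNG3, a modulatory potassium channel subunit, PTGFR, a prostaglandin receptor, and C3H1orf95 had a mean correlation of 0.75 among themselves and -0.70 with the TPBG group (-0.71 in the 22 hens, -0.54 in the LSL hens). EFHD1, WIPF3, C1QL3, a secreted synaptic protein, and LRAT, an enzyme of retinoid storage, had 0.78 among themselves and -0.49 with the TPBG group (-0.58 in the 22). The 4 rows of LYPD1, NPTX2, a neuronal pentraxin of synapses, and HPCAL1, a calcium sensor, had 0.84 among themselves. With the CCK group they had -0.57 (-0.51 in the 22). LYPD1 entered with several rows, so the 0.84 includes correlation within a gene. OSR1, a zinc-finger transcription factor, SLC38A4, an amino acid transporter, and ITIH2, a plasma matrix-binding protein, had 0.78, and 0.84 in the 22. DLX6, TWIST2 and CCDC81 had 0.83, and 0.82 in the 22. The 3 rows of SCRG1 and the myelin protein PLLP, the latter again with several rows, fell from 0.78 to 0.57 in the 22 hens. CH25H, TSPAN2 and CRYAB fell from 0.73 to 0.41. MIR1777, AVPR1B and PDZK1IP1 had 0.81, and 0.73 in the 22. The place of dissection was not recorded per hen, and its part in these groups was not tested.

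**Figure D3:**
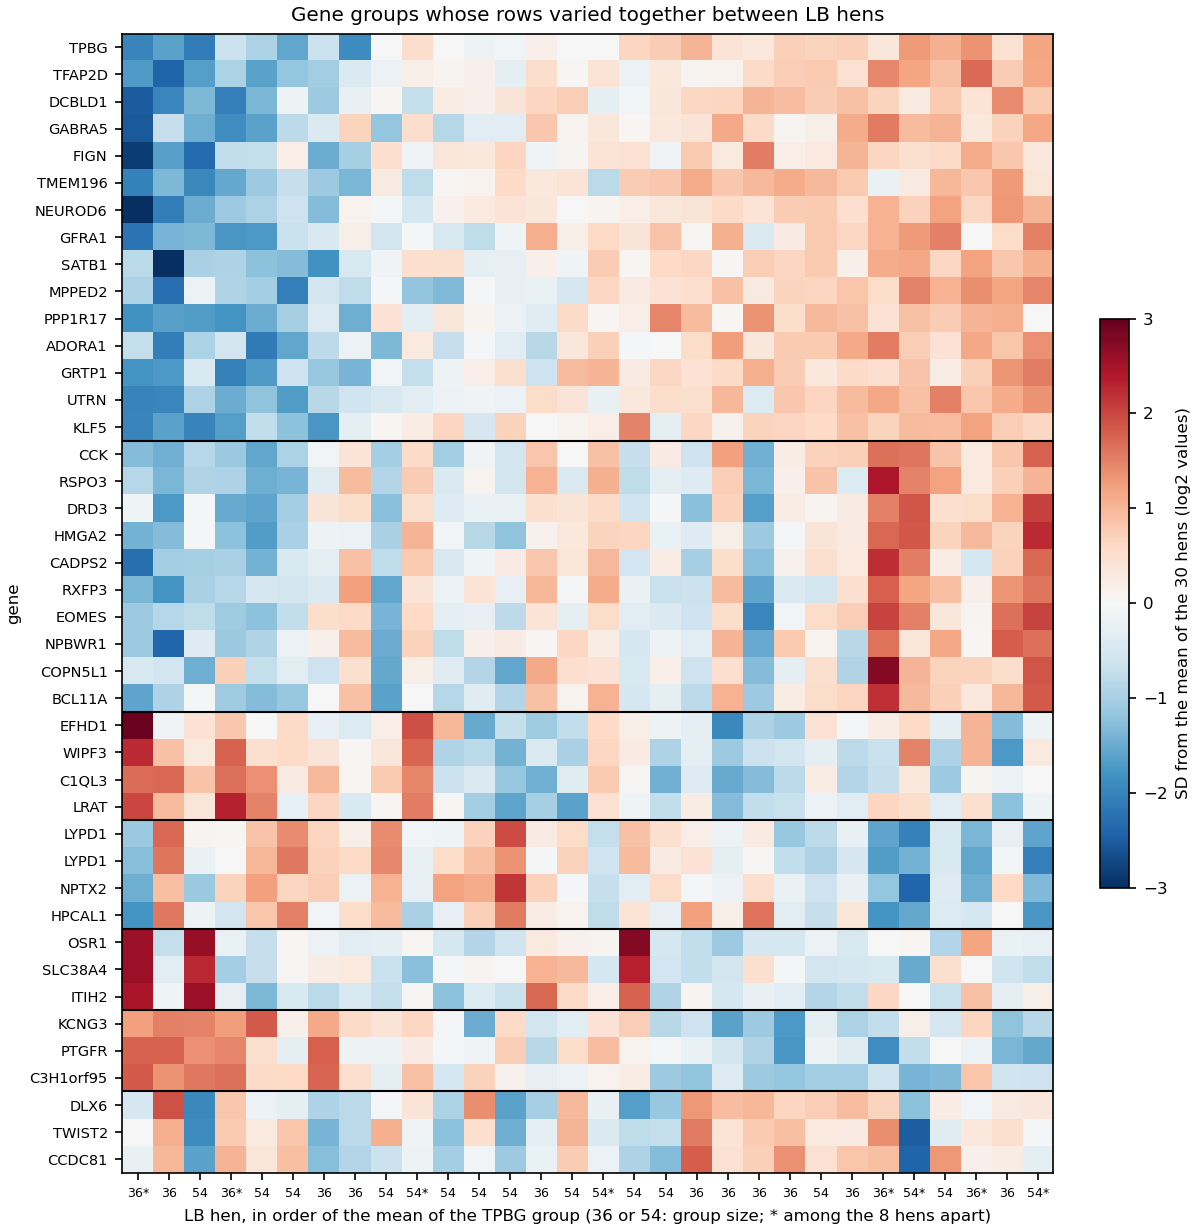
Rows are genes in 7 of the groups (separated by lines) and columns are the 30 LB hens in order of the mean of the TPBG group, with the group size under each column and a star for the 8 hens that stood apart; colour gives the distance of a hen from the mean of 30 hens in SD of log2 values. The CCK group tends to be high at the right where the TPBG group is high, the KCNG3 and EFHD1 groups tend to be high at the left, and hens from both group sizes and both sets occur throughout.

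Within the gene lists the mean correlation of all pairs was usually small. Over all 7200 genes it was 0.002. Microglia and macrophage genes had the largest value, 0.35 over 45 pairs, of which 39 were positive, and it was 0.41 in the 22 hens, 0.48 in the 8 and 0.26 in the LSL hens. Myelin genes followed with 0.20, which was 0.08 in the 22 hens. Immediate early genes had 0.17 (0.28 in the 22), with 52 of 66 pairs positive. Interferon response genes had 0.15 (0.25), cytosolic ribosome genes 0.15 (0.17), endothelial genes 0.14 (0.22) and meningeal genes 0.12 (0.19). The lists of cerebellum, tectum and thalamus (0.15, and 0.14 in the 22) and of red blood cells (0.14 and 0.15) lay in this range. So did MHC and antigen processing (0.14 and 0.16) and the respiratory chain (0.13 and 0.14). Pallial excitatory neuron genes had 0.13, which was 0.02 in the 22 hens. Striatal genes (0.01), heat shock genes (0.01), core histones (0.01) and hypoxia and glucocorticoid response genes (0.01) had means near that of all genes, even though single members were among the widest rows. The mean exceeded 0.1 in 12 of the 27 lists, in 11 in the 22 hens, and in 10 in both.

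Of 24 marker pairs, 7 had both genes measured, and their correlations across hens were tested by permutation with 100000 resamples, two-sided, and adjusted over the 7. MX1 and IFIT5, genes induced by interferon, had r = 0.46 (Spearman's rho 0.48, adjusted permutation p = 0.036 and 0.035, n = 30). Without the 2 hens farthest from the median of MX1, r was 0.59, and it was 0.63 in the 22 hens (adjusted permutation p = 0.011) and 0.22 in the 8. COL1A2 and DCN, matrix genes of fibroblasts, had r = 0.47 (rho 0.47, adjusted permutation p = 0.036 and 0.035), which was 0.31 without the 2 hens farthest from the median of COL1A2, 0.43 in the 22 hens (adjusted permutation p = 0.10) and 0.18 in the 8. Neither pair passed within the hens from groups of 36 or 54 alone, where r was 0.50 and 0.52 for MX1 and IFIT5 and 0.49 and 0.46 for COL1A2 and DCN.

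FOS and EGR1, transcription factors that neurons switch on within minutes of activity, gave opposite signs in the pooled hens and within the sets. FOS lay between 5.79 and 6.31 in the 8 hens and between 6.13 and 7.04 in the 22, so the sets overlapped, and EGR1 lay between 10.38 and 10.83 and between 9.99 and 10.43. Over the 30 hens r was -0.35 (rho -0.27, adjusted permutation p = 0.099 and 0.25), and -0.38 without the 2 hens farthest from the median of FOS. Within the 22 hens r was 0.58 (rho 0.52, adjusted permutation p = 0.018 and 0.047) and within the 8 it was 0.92 (rho 0.90, adjusted exact permutation p = 0.015 and 0.032). In the planned test over the 30 hens this pair did not pass. Both sets were found from these values and were added after the data were seen. The p-values within them are therefore descriptive, here and for the other pairs. The pooled value joins both sets and is no measure within either, and why the signs differ was not tested. FOS was read from 1 probe set. The remaining 4 pairs did not pass either. PENK and TAC1 of striatal neurons had r = 0.37 (rho 0.27, adjusted permutation p = 0.099 and 0.25), and 0.20 in the 22 hens. CD74 and B2M of antigen presentation had 0.22 (rho 0.02, adjusted permutation p = 0.34 and 0.97), SST and NPY of GABAergic neurons 0.04 (rho 0.03, adjusted permutation p = 0.88 and 0.97), and CSF1R and C1QA of microglia -0.03 (rho 0.01, adjusted permutation p = 0.88 and 0.97).

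**Figure D4:**
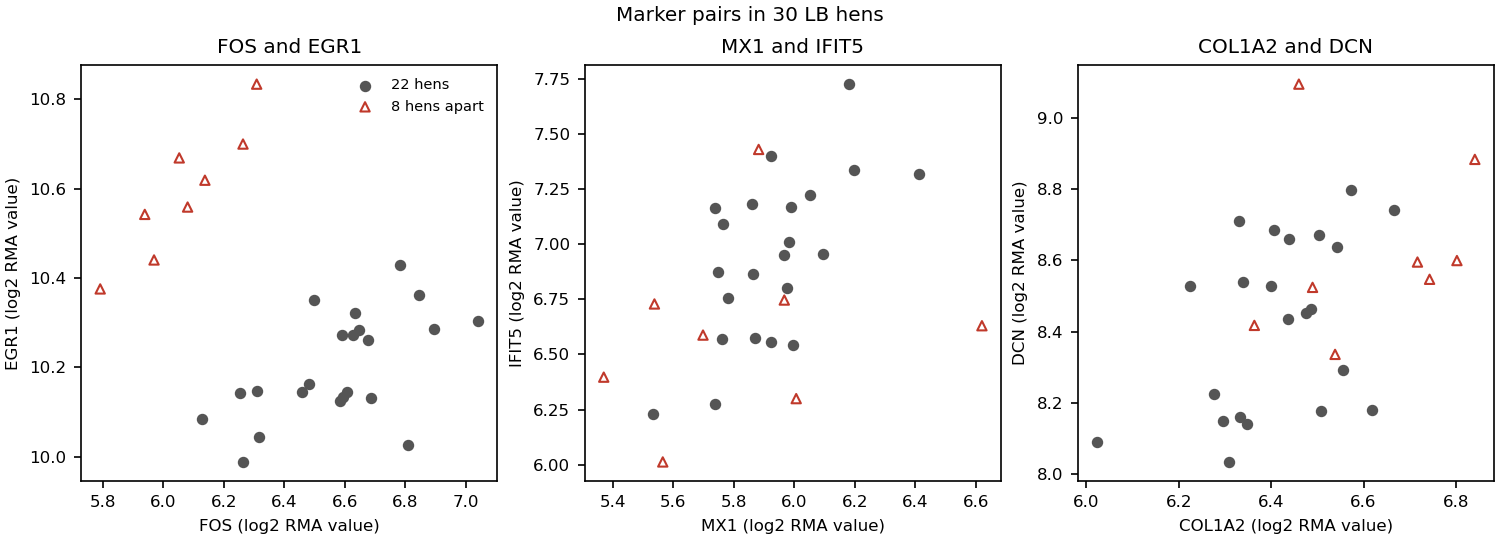
Log2 RMA values of FOS and EGR1, MX1 and IFIT5, and COL1A2 and DCN in the 30 LB hens, the first gene of a pair on the x axis and the second on the y axis; filled circles are the 22 hens and open triangles the 8 that stood apart. In the first panel the triangles form a cloud of their own at low FOS and high EGR1, and within either cloud EGR1 tends to be higher where FOS is higher.

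A row was said to lie at separate levels when the hens fell on both sides of an empty interval of at least 0.3, at least 3 hens on each side, and the interval was at least 2 times the pooled SD within the sides. Of the 16317 rows 96 (0.588%) did, and of the 7453 named rows 43 (0.577%). The named row nearest inside the limit was RHOB, with an interval of 2.06 SD, and the nearest outside was KEL, with 1.97 SD. In 35 of the 43 named rows the interval divided exactly the 8 hens from the 22, 26 with the lower side in the 8 hens and 9 with the higher.

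PROSC, a pyridoxal phosphate-binding protein, showed this most clearly. The 8 hens lay between 8.45 and 8.72 and the 22 between 9.30 and 9.50, an interval of 0.58 or 8.51 times the SD within the sides. SNRPD3, a core protein of the spliceosome, lay between 8.96 and 9.28 in the 8 hens and between 9.82 and 10.07 in the others. CNTNAP2, a neurexin-like adhesion protein of neurons, lay between 9.14 and 9.36 and between 9.89 and 10.28. The same division was found in TMX3, SMAP2, UBE2K, TAF13, SCRN1, MRPL22, RAB21, C5H14orf129, PPP1R2, SNX1, SERPINI1 and SUCLG1, all lower in the 8 hens. GADD45A, SDF2, SARS, the seryl-tRNA synthetase, and RPL27 were higher in them. SDF2 lay between 9.65 and 9.97 in the 8 hens and between 8.81 and 9.26 in the others. The rows named so far in this paragraph hold between 2 and 16 probe sets. In 34 of all 35 rows divided by the 8 hens, LSL hens lay on both sides. The exception was SOX4, with 22 LSL hens on the lower side, 8 in the interval and none on the higher. In SNRPD3 8 LSL hens lay in the interval, 8 below and 14 above. For PHC3, with the 22 LB hens at 9.34 or below and the 8 at 9.66 or above, 20 LSL hens lay on the lower side, 10 on the higher and none in between.

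In 8 named rows another division was found. In FAM204A the 5 hens on the higher side and in OPRL1, the nociceptin receptor, the 7 hens on the higher side were all among the 8 hens. TBCA, a tubulin-folding cofactor on chromosome Z, had the widest interval, in SD within the sides, of those that cut across. Here 20 hens lay between 8.34 and 8.72 and 10 hens between 9.33 and 9.62, an interval of 0.61 or 5.67 times the SD within the sides, and the means were 8.54 ± 0.11 (SD, n = 20) and 9.47 ± 0.10 (SD, n = 10) on the log2 scale. Of the 10 hens 5 belonged to the 8. The interval of TBCA was 5.70 SD in the 22 hens but 1.00 SD after removal of the first principal component, so that its call was lost there. In XPA, also on chromosome Z, 11 hens lay between 6.03 and 6.78 and 19 between 7.31 and 7.91, and the interval of 3.31 SD was 2.99 SD after that removal. Only 4 hens were on the higher side in both genes, 15 were high in XPA alone and 6 in TBCA alone. The 2 hens of an odd and even pair lay on the same side in 9 of 15 pairs for TBCA and in 8 of 15 for XPA. Of the LSL hens, 27 lay on the lower side of TBCA and none on the higher, and 24 lay inside the empty interval of XPA.

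OSR1 and SLC38A4 set the same 3 hens apart. In OSR1 the 3 lay between 7.42 and 7.54 and the other 27 between 5.05 and 6.51, and in SLC38A4 between 7.92 and 8.09 and between 5.82 and 7.23. The 3 hens came from groups of both sizes, and 1 of them belonged to the 8. Among the LSL hens 3 and 4 lay on the higher side of these genes. ITIH2, which varied with both, ranged from 5.19 to 7.32 with a median of 5.78. In TUBA4A, an alpha-tubulin, 3 hens lay between 4.09 and 4.22 and 27 between 5.07 and 6.43, and in RHOB, a small GTPase, 3 hens lay between 8.15 and 8.32 and 27 between 7.16 and 7.81. The low side of TUBA4A lay below 5.08, the limit on the row mean for keeping a row. The 3 hens low in TUBA4A came from groups of 54 and the 3 high in RHOB from groups of 36.

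**Figure D5:**
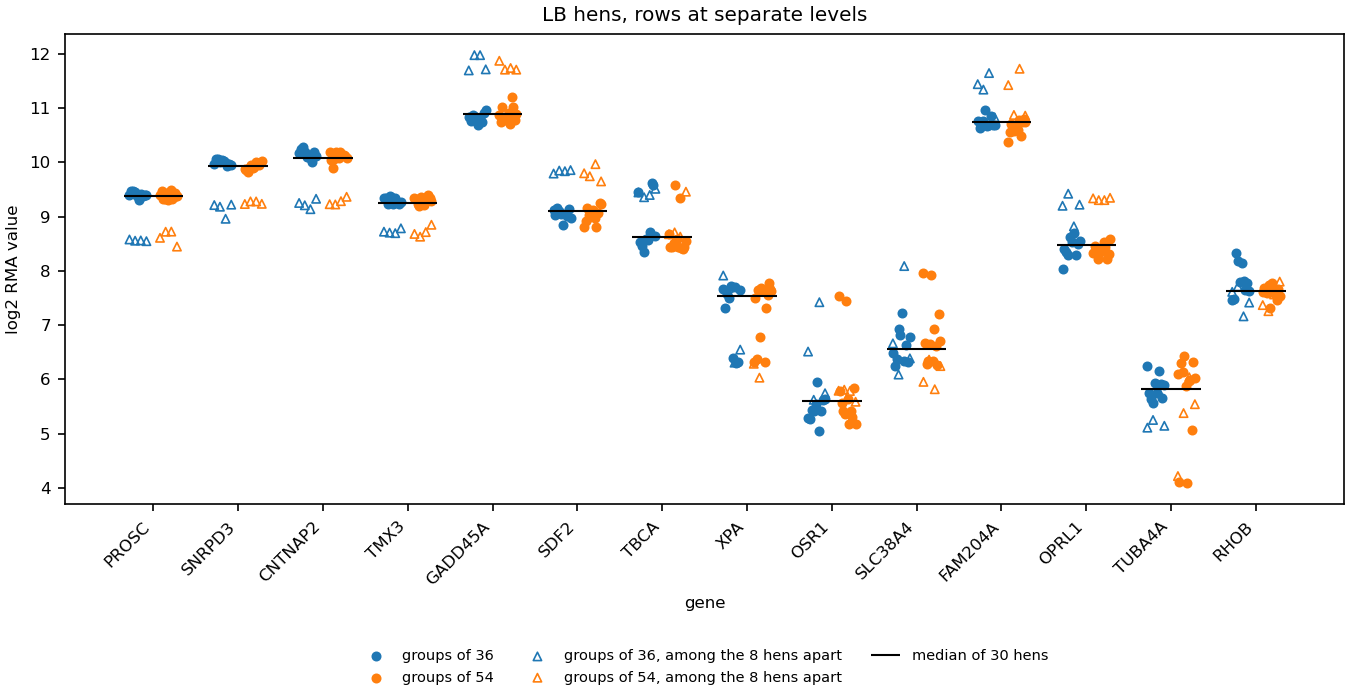
Values of the 30 LB hens (log2 RMA value, y axis) for 14 of the 43 named rows at separate levels (x axis), with circles for the 22 hens, open triangles for the 8 that stood apart, colours for group size and a line at the median. From PROSC to SDF2 the triangles lie on 1 side alone; in TBCA, XPA, OSR1, SLC38A4 and TUBA4A both kinds of points occur on the side with fewer hens.

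Without the 8 hens 12 named rows lay at separate levels, and 3 of these, TBCA, XPA and RHOB, were among the 43. The other 9 were TARS and FANCC, both on chromosome Z, ITIH2, KEL, SNRNP200, COX19 and the microRNA genes MIR1683, MIR1724 and MIR1587. KEL, a blood group protein of red cells, divided the 22 hens into 15 and 7 with an interval of 0.62, and TARS, the threonyl-tRNA synthetase, into 12 and 10 with an interval of 0.49. The LB mean of KEL was 5.11, next to the limit of 5.08 for keeping a row, and its lowest hen stood at 4.41. Of the 17 named rows that divided hens other than by the 8, in the 30 or the 22 hens, 4 lie on chromosome Z, where 4.31% of the named rows lie. Among the 53 unnamed rows at separate levels, 5 carry a name in the study's list of probe sets that differed between LB and LSL. They were named after their values were seen. Since that list was drawn from the contrast of the lines, the side on which LSL hens lie in these rows is not independent of it. The row of the histone H4, with 1 probe set, had 10 hens between 10.03 and 10.48 and 20 between 11.36 and 12.00, and all LSL hens lay on its lower side. The spread ratio of this row was 5.98, above that of IGJ. The row of ASCC3L1, with 1 probe set, had 13 hens between 6.50 and 7.41 and 17 between 8.39 and 9.49. Again all LSL hens lay on the lower side. ASCC3L1 is an earlier symbol of SNRNP200, so both rows stand for the same gene. The SNRNP200 row, also with 1 probe set, did not show this division. Its largest interval in the 30 hens was 0.11, with 24 hens below and 6 above, and 3 LSL hens lay above it. In MPZL1, with 6 probe sets, 22 hens lay between 8.80 and 9.39 and 8 between 9.86 and 10.08; of these 8 hens only 1 was among those apart on the first component.

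Group size was used as a check on all of this. For the 43 named rows at separate levels Fisher's exact test of side against group size gave no adjusted p below 1. The smallest unadjusted p was 0.090, for RHOB. This check could decide little. In 35 of the rows the sides were the same 8 and 22 hens, so the same test was repeated. With 3 hens on a side, as in RHOB, no lower p is possible at these group sizes, so such a row could not pass. In limma 0 of 16317 rows (0%) differed between hens from groups of 54 and 36 at an adjusted p of 0.05, with 0.21 as the lowest adjusted p in the table. Before adjustment 1223 rows (7.50%) had a p under 0.05. Among the 25 widest rows 1 reached an unadjusted p of 0.05, FZD6, at 7.86 ± 0.45 (SD, n = 16) in groups of 54 and 7.47 ± 0.62 (SD, n = 14) in groups of 36 (limma, adjusted p = 0.64). The named rows with the smallest p were TEKT3, a protein of ciliary microtubules, 0.23 lower in groups of 54 (6.67 ± 0.15 against 6.90 ± 0.10; log2 difference -0.23, SE 0.05), DDX25, a germ cell RNA helicase (-0.26, SE 0.05), RAD21L1, a meiotic cohesin (0.26, SE 0.06), FKBP9, a peptidyl-prolyl isomerase (0.27, SE 0.07), and GATA4 (-0.27, SE 0.07), with adjusted p from limma of 0.21, 0.21, 0.24, 0.42 and 0.45. Within the DLX6, TWIST2 and CCDC81 group all 3 genes were lower in groups of 54 at an unadjusted p under 0.05, with adjusted p of 0.66, 0.64 and 0.61 from limma.

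The spread itself was compared between LB and LSL hens by limma on each hen's distance from the median of its line and group size. These distances were not corrected for level, and the SD fell with the level across rows. At an adjusted p under 0.05 the mean distance was larger in LB in 26 of 16317 rows (0.159%) and smaller in 9 (0.0552%). Of these 35 rows 13 are named. C6 had a mean distance of 0.65 in LB and 0.15 in LSL (difference 0.50, SE 0.07, adjusted p = 3.6e-06), at SDs of 0.74 and 0.19. Its mean was 5.92 in LB and 5.09 in LSL, the latter next to the limit of 5.08 for keeping a row. TBCA followed with 0.35 and 0.07 (difference 0.28, SE 0.05, adjusted p = 0.0019). FAM8A1 (SD 0.49 in LB and 0.21 in LSL), HIST1H2BO (0.53 and 0.23) and CIB2 (0.44 and 0.17), a calcium-binding protein, were also wider in LB, with adjusted p of 0.019, 0.026 and 0.026. The same held for GPC5, LGALS1 and GPRIN2. LGALS1 has 2 rows, of which 1 was called. The LSL means of LGALS1 and GPRIN2 were 5.29 and 5.65, not far above the limit of 5.08. Narrower in LB were ABCB1, the drug efflux pump of the blood-brain barrier (SD 0.15 in LB and 0.58 in LSL, adjusted p = 0.00060), FAM177A1 (0.20 and 0.56, adjusted p = 0.014), QDPR, an enzyme that regenerates tetrahydrobiopterin (0.27 and 1.61, adjusted p = 0.026), VPS29, a retromer subunit (0.10 and 0.28, adjusted p = 0.032), and DYX1C1 (0.11 and 0.27, adjusted p = 0.041). Of the 3 rows of QDPR only 1 was called. That row holds 2 probe sets, and its mean was 6.98 in LB and 5.52 in LSL. Means in LB and LSL lay apart in other called rows too, at 7.63 and 6.34 for ABCB1 and 9.24 and 8.72 for FAM177A1. HIST1H2BO stood at 7.32 and 6.78, while VPS29 (8.65 and 8.66) and CIB2 (7.44 and 7.52) lay close. These levels were not tested. With hen pairs as a random block 12 of the 35 rows remained, and of the 13 named ones C6, ABCB1, TBCA and FAM177A1. IGJ, TPBG, CCK and TAC1, among the widest rows in LB, were not among the rows called; their spread ratios in the LSL hens were 9.51, 4.23, 3.69 and 3.27.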

How the data were processed

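Expression in the cerebrum of 60 hens was measured on Affymetrix ChiGene-1_0-st arrays, 1 per hen. The authors deposited log2 values after robust multi-array averaging (RMA) with quantile normalisation; the genome build behind the array's annotation is not given in the sources used here. The value table of the series held the same values. An empty row and 2 control rows were left out, no column was unmapped, and no depth applies to arrays.

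Gene symbols came from the platform annotation: of 16317 rows kept, 7453 had 1 symbol, 81 several and 8783 none. Chromosomes came from the GRCg7b RefSeq gene table, which held 7373 of the named rows. Hens were grouped by their labels. Spread ratios, separate levels and correlation groups are descriptions. Group size and the spread against LSL were tested with limma (version 3.58.1, run in R 4.3.3), p-values being adjusted over all 16317 rows by the method of Benjamini and Hochberg, and marker pairs by permutation in scipy 1.17.1. The scripts were checked on simulated data. The p-values assume independent hens.

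Members, gene lists and tests were chosen with earlier results of these data known. By rule the text names the 20 highest genes, the 25 widest rows, the 20 clearest rows at separate levels, the leading members of lists and groups, and the 5 rows with the smallest p of each test and direction; further genes of lists, groups and separate levels were named after their values were seen. Alternatives covered the filter, the measure and threshold of spread, the gap, hen pairs, the first principal component, either group size alone, and, added after the data were seen, the 22 hens.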

Additional observations from a re-analysis of the deposited data

How the results depend on the processing

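The count of named rows with a spread ratio of at least 2 stayed between 270 and 376 under the other measures, with either group size alone and without the 8 hens, and was 993 at a limit of 1.5 and 34 at a limit of 3. The rows changed more than the count: of the 293, 175 were shared with the median absolute deviation, 178 after removal of the first principal component and 199 with the trend taken within classes of probe set number. Of the 43 named rows at separate levels, 25 remained at 3 pooled SD and 11 at a minimum interval of 0.5. After removal of the first principal component 9 rows were called and without the 8 hens 12, and 3 of each were among the 43. The 35 rows that differed in spread between LB and LSL became 12 when hen pairs entered as a random block, and 72 after removal of the first principal component within each line. The 2 marker pairs past the threshold became 0 in the means of the 15 hen pairs, in groups of 36 alone and in groups of 54 alone, where fewer points entered. Some correlations changed sign. FOS and EGR1 had 0.72 after removal of the component and 0.58 in the 22 hens. CSF1R and C1QA had 0.055 after removal of the component, 0.11 in groups of 54 and a rank correlation of 0.0071. SST and NPY had -0.13 after removal of the component, -0.41 in groups of 36 and -0.12 in the 22 hens, and CD74 and B2M had -0.013 in the 22 hens. The cause was not tested. Group size gave 0 rows under every alternative, limma and the methods' t-test alike, with 589 to 1615 rows at an unadjusted p under 0.05. No paired analysis was possible because each hen number belongs to 1 hen. The pairs of odd and even numbers are not stated to share a compartment.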
